A study of Mus musculus with 4 samples.

Results

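Antiviral interferon-stimulated genes are the genes that cells switch on when type I interferon reaches them. A list of 42 of them was examined, without the interferon-inducible GTPases of the Gbp and Irg families. Each gene was read on its brightest probe set that names 1 gene, by the mean of the 4 arrays, and 40 of the 42 were found among the 18193 genes with such probe sets. Isg15 and Ifi44 were not, and they are not analysed here.

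The cells were macrophages grown from mouse bone marrow with M-CSF for 5 days. There were 4 groups of 1 Affymetrix array each: wild type unstimulated, wild type given 100 ng/ml lipopolysaccharide (LPS) for 4 h, Jmjd3-/- unstimulated and Jmjd3-/- given the same LPS. Kdm6b encodes Jmjd3, an enzyme that takes methyl groups off histone H3, and Jmjd3-/- cells are called knockout here. The strain, the age of the mice, the deleted part of the gene and the number of mice were not stated in the labels read here. Levels are log2 values made by the authors with RMA, a method that summarises the probes of a set. A level under log2 6 was treated as a background reading, and differences are on the log2 scale, where 1 is 2-fold.

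LPS, a cell wall component of Gram-negative bacteria, activates Toll-like receptor 4 on macrophages. One branch of that receptor's signalling runs through the adaptor TRIF (gene Ticam1) and the kinase TBK1 to the transcription factor IRF3, which induces interferon beta. Secreted interferon binds the receptor IFNAR, and the kinases JAK1 and TYK2 then activate a transcription factor complex that includes STAT2 and IRF9. This complex binds the interferon-stimulated response element in the promoters of genes such as the Ifit family, and the products block several steps of viral replication.

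With 1 array per group, no difference between 2 arrays has a replicate check. The effect of LPS shared by both genotypes, and that of genotype shared by both states, were tested with limma in an additive model over all 4 arrays. That model has 1 residual degree of freedom and was fitted on the 9385 genes at or above log2 6 on an array, all 40 members among them. Its error comes from how far the LPS response changed with genotype, with variances shared across genes. "Rose" and "fell" are used for a Benjamini-Hochberg adjusted p below 0.05, written as limma adjusted p. Nothing in the sources says that the samples came from separate cultures or animals, so the spread behind these p-values may be technical.

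All 40 members of the list, which was chosen with earlier results of these data known, rose with LPS in this model. Of all genes tested, 11.2% did and 18.8% fell. These shares are 1054 and 1769 genes; with the arrays centred on the median gene, all 40 members still rose, and 1185 genes rose and 1300 fell. The median effect over the members was 3.53, beside -0.22 over all genes. The largest were those of Ifit1bl1 (6.59), Mx2 (5.88), Cmpk2 (5.81), Ifit1 (5.67), Oasl1 (5.57) and Isg20 (5.48), of which Mx2 and Isg20 start from background readings and so have no firm rank. With 64 added to the linear values the effect of Mx2 was 3.85 and that of Isg20 4.27, below those of Ifit3 (5.01), Usp18 (4.76) and Ifit2 (4.63). As measured, the smallest effects were those of Ifitm3 (0.47), Lgals3bp (0.87) and Trim25 (0.93). The adjusted p-values (limma) lay between 0.00177 and 0.0272, and every member was higher in both genotypes, where 37.7% of all genes were in wild type and 35.0% in the knockout. In wild type alone 37 of 40 were 2-fold or more higher, against 9.86% of 8627 genes, with a median of 3.18. In the knockout 38 of 40 were, against 11.0% of 9122 genes, with a median of 3.84. No member was 2-fold lower in either, where 14.3% and 15.5% of all genes were. Array against array, the median level of the 40 members went from 8.41 to 11.69 in wild type and from 7.92 to 11.85 in the knockout. Without the genotype term, which leaves the genotype differences in the error, 33 of the 40 rose. Of all 9385 genes, 183 rose and 84 fell in that model.

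**Figure D1:**
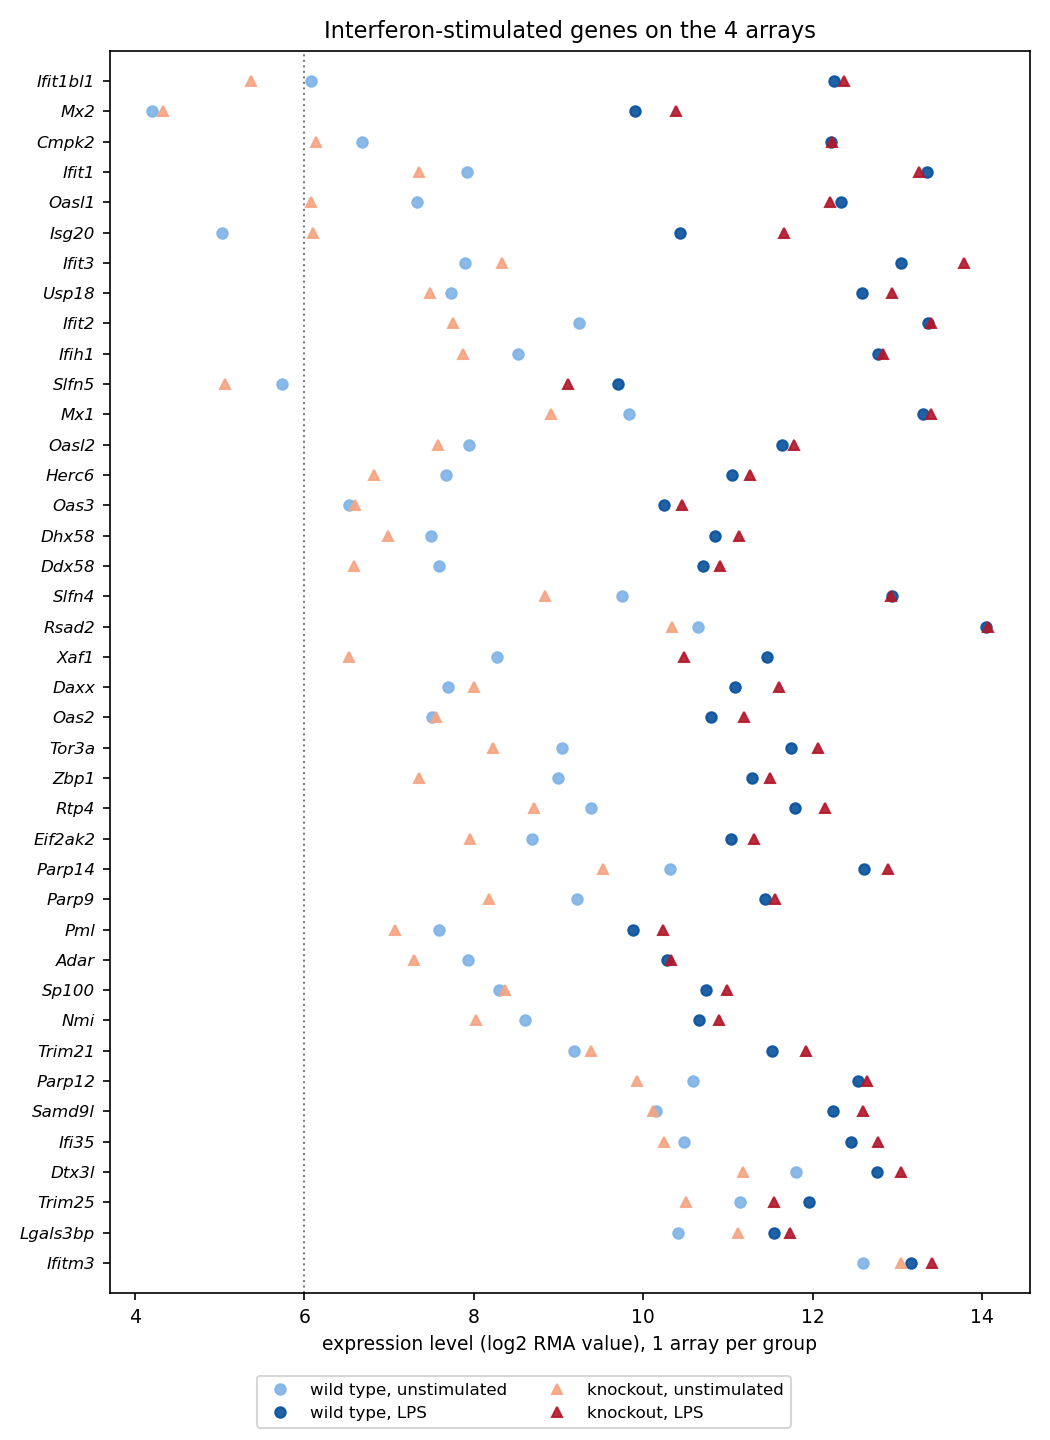
Level of each of the 40 members (log2 RMA value, horizontal axis) on the 4 arrays, with 1 point per array and genes ordered by the LPS effect shared by both genotypes; the dotted line is log2 6. Both LPS points lie to the right of both unstimulated points for all 40 genes, and for Lgals3bp and Ifitm3 the distances are short.

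The IFIT proteins recognise viral RNA and hold back its translation, and their genes had a median LPS effect of 5.49. Ifit1 read 7.92 without and 13.35 with LPS in wild-type cells, and 7.35 and 13.25 in the knockout. Its LPS effect was 5.67 with a standard error of 0.19 (limma adjusted p = 0.00177), a 50.9-fold change. Ifit1bl1, a related gene, read 6.08 and 12.25 in wild type and 5.37 and 12.37 in the knockout, so that its unstimulated knockout level was a background reading. For both genes the LPS levels of the genotypes lay closer together than the unstimulated ones. Ifit3 read 7.89 and 13.05 in wild type and 8.34 and 13.78 in the knockout, higher in the knockout in both states. Ifit2 read 9.24 and 13.36 in wild type and 7.76 and 13.40 in the knockout. The unstimulated Ifit2 level was thus 2.8-fold lower in the knockout, and the LPS levels were nearly equal. Ifit3 has a near-identical copy in the mouse, Ifit3b, which its probe set may also read.

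Promoter sequence was examined for the element that the interferon-activated complex binds. The core of the interferon-stimulated response element, GAAA and GAAA with 2 bases of any kind between, was searched on both strands in the 250 bases before each RefSeq gene start (assembly GRCm38.p6), with overlapping matches counted. Windows were at hand for 30 of the 40 measured members, and 6 of the 30 held it: Ifit1, Ifit1bl1, Ifit3, Slfn5, Oas3 and Rsad2. Of all 27025 genes with windows, 3.46% did, and of 809 other genes that rose with LPS, 8.16%. The stretch around the matches is given for the 4 of them with the largest LPS effects as measured, 5′ to 3′ along the gene. The matches are in capitals. Slfn5 started from background readings. With 64 added to the linear values its effect (2.80) was below those of Rsad2 (3.51) and Oas3 (3.11). A match that lies on the opposite strand reads as TTTC, 2 bases and TTTC here.
Ifit1bl1 (chr19:34602043-34602092, minus strand): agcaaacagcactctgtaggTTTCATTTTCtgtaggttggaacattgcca
Ifit1 (chr19:34640765-34640833, plus strand): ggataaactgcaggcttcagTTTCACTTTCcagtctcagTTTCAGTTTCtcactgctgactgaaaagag
Ifit3 (chr19:34583353-34583436, plus strand): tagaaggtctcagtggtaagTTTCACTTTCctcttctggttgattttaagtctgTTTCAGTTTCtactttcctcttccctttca
Slfn5 (chr11:82951927-82951976, plus strand): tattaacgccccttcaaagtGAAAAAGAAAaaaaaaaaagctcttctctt
Ifit1 and Ifit3 each held 2 matches in 1 window, and Ifit1bl1 held 1 before each of 2 annotated starts, of which 1 is printed. In Ifit1 and Ifit3 the first read TTTCACTTTC and the second TTTCAGTTTC. The first match of Ifit1 began 104 bases before the start and that of Ifit3 156 bases before it. The match of Slfn5 lies at the head of a run of A. An NF-kB motif, GGG and TTTCC with 2 bases of any kind between, was in 0 of 30 members and 1.65% of all genes. A match is a description of these letters, and a window without one says only that they are not in it.

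On their brightest probe sets the cytosolic sensors of viral nucleic acid were lower in the unstimulated knockout and slightly higher with LPS. They are Ddx58 (RIG-I) and Ifih1 (MDA5), which detect viral RNA, Dhx58 (LGP2), their regulator, and Zbp1, which binds Z-form nucleic acid. Zbp1 read 8.99 and 11.29 in wild type without and with LPS, and 7.35 and 11.49 in the knockout. LPS raised the reading by 2.30 in wild-type cells and by 4.14 in the knockout. The gap between these responses, 1.84, was the widest of the 40 members. Ddx58 read 7.59 and 10.71 in wild type and 6.58 and 10.91 in the knockout. On their brightest probe sets the 4 sensors differed (knockout minus wild type) by between -1.64 and -0.50 unstimulated. With LPS these differed by between 0.06 and 0.28. Other probe sets gave 0.65 for Zbp1, 0.89 and 0.19 for Ddx58 and 0.17 for Dhx58 with LPS. A further one of Dhx58, under log2 6 throughout, gave -0.42. Ifih1 rose by 4.60 with LPS, Dhx58 by 3.74 and Ddx58 by 3.72. None of the 4 passed the genotype test (limma adjusted p between 0.409 and 0.827).

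The ISG15 system attaches the ubiquitin-like protein ISG15 to other proteins. Herc6, its main ligase in the mouse, read 7.67 and 11.04 in wild type and 6.83 and 11.26 in the knockout. Usp18, which removes ISG15 and also restrains the interferon receptor, read 7.73 and 12.59 in wild type and 7.49 and 12.94 in the knockout, and rose by 5.15. Trim25, a ubiquitin ligase that acts on RIG-I, read 11.14 and 11.95 in wild type and 10.50 and 11.54 in the knockout. Both knockout levels of Trim25 were lower than the wild-type level of the same state. Its genotype effect of -0.53 did not pass (limma adjusted p = 0.101). The other probe sets of Trim25 also read lower in the knockout in both states, by between 0.64 and 1.51. On the dimmest the genotype effect was -1.16 and passed (limma adjusted p = 0.0464).

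The OAS enzymes make the messenger molecule that activates RNase L, and Oasl1 and Oasl2 encode relatives of them. Oasl1 read 7.33 and 12.33 in wild type and 6.08 and 12.21 in the knockout, lower in the knockout in both states, by 1.25 without and 0.13 with LPS. Oas2, Oas3 and Oasl2 rose by 3.46, 3.79 and 3.95, and their genotype differences lay between -0.36 and 0.39 in both states.

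Among the effectors that act on viral nucleic acids and entry, Isg20 was the member that rose in the knockout. Isg20, a 3′ to 5′ exonuclease that degrades RNA, read 5.03 and 10.43 in wild type and 6.10 and 11.66 in the knockout. Its genotype effect was 1.15 with a standard error of 0.18 (limma adjusted p = 0.0273, higher in both states), a 2.22-fold change. The unstimulated wild-type level was a background reading, and the LPS levels differed by 2.34-fold. The call was lost in 3 of 9 alternatives, among them quantile normalisation of the arrays (0.92), with limma adjusted p between 0.0997 and 1.0.

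Of the other effectors, Mx1 and Mx2 encode dynamin-like proteins that block incoming virus particles. Mx2 read 4.20 and 9.90 in wild type and 4.33 and 10.39 in the knockout, from background on both unstimulated arrays. Mx1 read 9.83 and 13.30 in wild type and 8.91 and 13.40 in the knockout. Rsad2 (viperin) and Cmpk2 are neighbouring genes whose products act on nucleotides, viperin by making a chain-terminating one. Cmpk2 read 6.68 and 12.21 in wild type and 6.14 and 12.23 in the knockout. Rsad2 read 10.64 and 14.04 in wild type and 10.34 and 14.07 in the knockout. The LPS levels of Cmpk2 and Rsad2 thus differed between genotypes by 0.02 and 0.03. Eif2ak2 (PKR), which stops translation, rose by 2.85, Adar, an RNA editing enzyme, by 2.69 and Samd9l by 2.29. Ifitm3, which hinders viral entry at membranes, read 12.59 and 13.16 in wild type and 13.04 and 13.40 in the knockout. Its effect of 0.47 was the smallest of the list (limma adjusted p = 0.0244, higher in both genotypes).

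Parp9, Parp12 and Parp14 belong to the ADP-ribosyltransferase family, and Dtx3l is the ubiquitin ligase partner of Parp9. Parp9 read 9.22 and 11.44 in wild type and 8.17 and 11.56 in the knockout. Dtx3l read 11.80 and 12.76 in wild type and 11.17 and 13.04 in the knockout. All 4 genes of this group were lower in the unstimulated knockout, by between 0.63 and 1.05, and higher with LPS, by between 0.11 and 0.28. Of the genes of PML nuclear bodies, Pml, Sp100 and Daxx rose by 2.73, 2.53 and 3.50. On their brightest probe sets Daxx and Sp100 were higher in the knockout in both states and Pml with LPS. Without LPS Sp100 differed by 0.06 there and by -0.42 on its other probe set, between background readings.

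The Schlafen genes Slfn4 and Slfn5 rose by 3.63 and 4.01. Slfn5 read 5.73 and 9.70 in wild type and 5.06 and 9.11 in the knockout, and Slfn4 read 9.75 and 12.93 in wild type and 8.84 and 12.92 in the knockout. On its brightest probe set Slfn5 read lower in the knockout by 0.67 without LPS, from background, and by 0.58 with it. Its other probe sets gave 0.40 and 0.06 with LPS, the opposite sign, while the LPS levels of Slfn4 nearly coincided. Of the remaining members, Ifi35, Nmi, Rtp4, Tor3a and Trim21 rose by between 2.25 and 3.26. Lgals3bp, a secreted glycoprotein gene, read 10.41 and 11.55 in wild type and 11.12 and 11.73 in the knockout. Lgals3bp and Ifitm3 were the only members of the 40 with a smaller LPS difference in the knockout.

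Before the genotype comparison, the knockout arrays were checked for other cell types. Of 13 granulocyte markers 12 were measured; 4 and 7 of them reached log2 6 in wild type without and with LPS, and all 12 did on both knockout arrays. Their summed linear intensity was 3853 and 5058 in wild type and 38596 and 38933 in the knockout. Mmp8 went against the others, reading 11.14 and 10.55 in wild type and 8.71 and 7.14 in the knockout (limma adjusted p = 0.00685, lower in both states). All 12 stromal markers reached log2 6 in the knockout, with sums of 35896 and 29819, against 4 and 6 in wild type with sums of 790 and 969. The 10 of 12 macrophage markers that were measured reached log2 6 on every array, with sums of 48423 and 50125 in wild type and 51996 and 48872 in the knockout. Within them Itgam fell by 1.04 with the knockout and Fcgr1 rose by 0.76 (limma adjusted p = 0.0385 and 0.0325, the same way in both states), and Mertk read 2.13-fold lower with LPS. The 7 measured dendritic cell markers summed to 324 and 1235 in wild type and 139 and 372 in the knockout, and Flt3, Itgae, Xcr1 and Siglech were under log2 6 throughout. The 8 T, B and NK markers summed to 388 and 509 against 135 and 153, with Cd3e, Cd3g and Cd3d above log2 6 in wild type only. The part of these cells in the genotype differences was not tested. In such bulk samples fewer expressing cells and less RNA per cell cannot be told apart. The targeted gene did not settle the labels: the brightest Kdm6b probe set read 10.33 and 11.23 in wild type and 9.82 and 10.82 in the knockout. Another read higher in the knockout, at 5.35 and 6.07 against 4.71 and 5.22 in wild type, and reached log2 6 only in the knockout with LPS. A further one was under log2 6 throughout. Whether any of them lies in the deleted part is not known.

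In unstimulated cells most of the antiviral genes read lower in the knockout. Of the 38 members at or above log2 6 on an unstimulated array, 29 were below 0 (knockout minus wild type), where 43.2% of 9045 genes were, and 9 above, where 56.8% were. The median was -0.60 against 0.07 over all genes. Lower readings were also common among the 880 other genes that rose with LPS and were past the floor unstimulated. Of these, 65.3% were below 0 and 18.9% were 2-fold or more lower, with a median of -0.24. There were 6 members 2-fold or more lower (5.74% of all genes), Xaf1 (-1.75), Zbp1 (-1.64), Ifit2 (-1.48), Oasl1 (-1.25), Parp9 (-1.05) and Ddx58 (-1.01). The other probe set of Xaf1 read the opposite way, at 5.17, so its place in this order holds for the brightest one. The member 2-fold or more higher (9.54% of all genes) was Isg20 (1.07). Lgals3bp (0.71), Ifitm3 (0.45), Ifit3 (0.44) and Daxx (0.30) followed it. Slfn5 and Mx2, under the floor on both arrays, differed by -0.67 and 0.13. There is no test of this difference. Adding 64 to the linear values, which shrinks low readings, brought the count of 2-fold lower members from 6 to 3.

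With LPS the genotypes lay closer together. The median knockout minus wild type difference of the 40 members was 0.21, against 0.04 over 8630 genes, and 35 of the 40 differed by less than 0.5, where 67.9% of all genes did. There were 34 members above 0, where 54.1% of all genes were, and 6 below, where 45.9% were. Isg20 (1.22) was the member 2-fold or more higher (9.76% of all genes), followed by Ifit3 (0.74), Daxx (0.52), Mx2 (0.49) and Trim21 (0.40). None was 2-fold lower (5.65% of all genes), the lowest being Xaf1 (-0.98, against 8.07 on its other probe set), Slfn5 (-0.58, against 0.40 and 0.06 on its others), Trim25 (-0.41), Oasl1 (-0.13) and Ifit1 (-0.10). Centring the arrays on the median gene moved the split from 34 and 6 to 29 and 11. These differences are also untested.

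**Figure D2:**
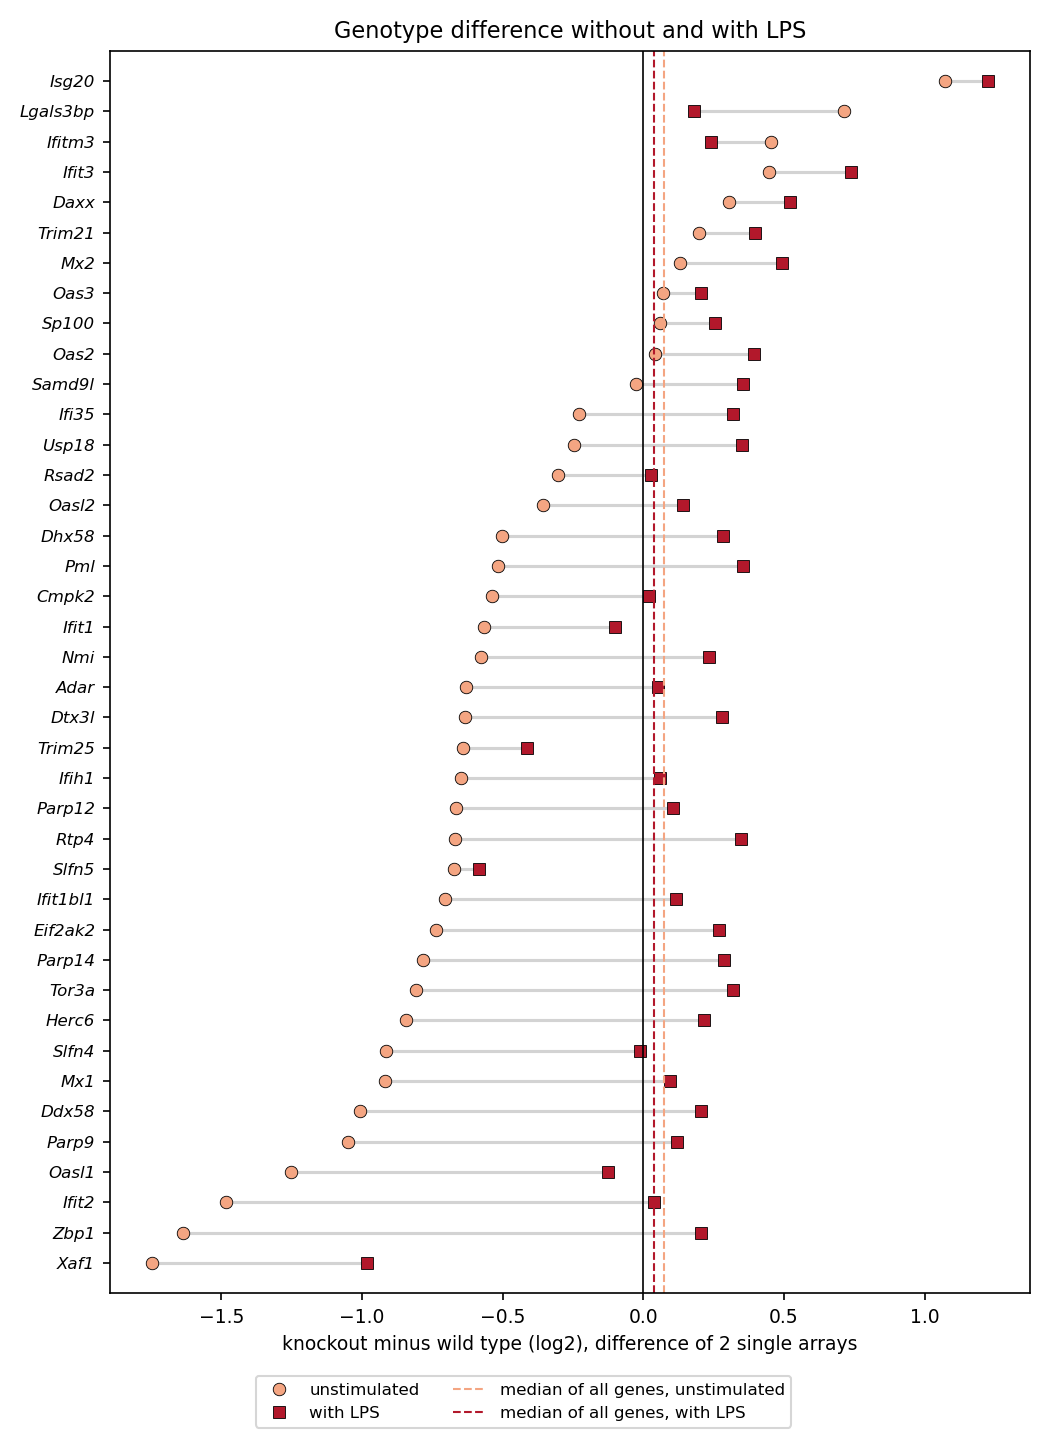
Knockout minus wild type difference (log2, horizontal axis) of each of the 40 members without LPS (circles) and with LPS (squares), each from 2 single arrays, with dashed lines at the medians of all genes tested. In 24 genes the circle lies below 0 and the square above it, and Isg20 lies above 1 in both states.

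Over the 40 members, 24 were below 0 without LPS and above 0 with it, where 14.4% of 9385 genes were, and none the other way round, where 16.2% were. The 6 members below 0 in both states were Ifit1, Trim25, Oasl1, Slfn4, Slfn5 and Xaf1, and 10 were above 0 in both. All genes outside the 14.4% and 16.2% likewise kept 1 sign, or read 0 in a state. With LPS Slfn4 differed by only -0.01, and other probe sets of Slfn5 and Xaf1 read above 0. In the additive model Isg20 rose and Xaf1 fell with the knockout, while 6.39% of all genes rose and 3.12% fell. The other 38 did not pass, and the median genotype effect over the 40 members was -0.20. An unadjusted p below 0.05 (limma) was found for 6 of the 40 members and for 2287 of all 9385 genes. A gene whose genotype difference changes between the states is less likely to pass this test, since that change is its error.

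Seen as responses, 38 of the 40 members had a larger LPS difference in the knockout, where 47.6% of 9385 genes did, and the median gap was 0.69, a 1.62-fold difference between the responses. The gap reached 2-fold in 11 members (5.19% of all genes), the widest being those of Zbp1 (1.84), Ifit2 (1.52) and Ddx58 (1.21), and in none the other way (4.73%). The gap was below 0 (52.4% of all genes) in Lgals3bp (-0.53) and Ifitm3 (-0.21), followed by Slfn5 at 0.09. Across the members the responses of the genotypes, which share no array, kept nearly the same order (Pearson r = 0.951, Spearman rho = 0.917, n = 40 genes of the same arrays, given as a description). The 1014 other genes that rose with LPS had a median gap of 0.20, with 63.8% above 0 and 13.4% at 2-fold or more. They were picked by the test whose error is this gap, so genes with a wide gap were less likely to be among them. The members were listed by name instead, though with earlier results of these data known, so the comparison is not a like one. Of the 1014, the 880 past the floor without LPS had a median knockout minus wild type difference of -0.24 there. With LPS the median over all 1014 was 0.01. No design with 1 array per group can test a difference between responses.

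**Figure D3:**
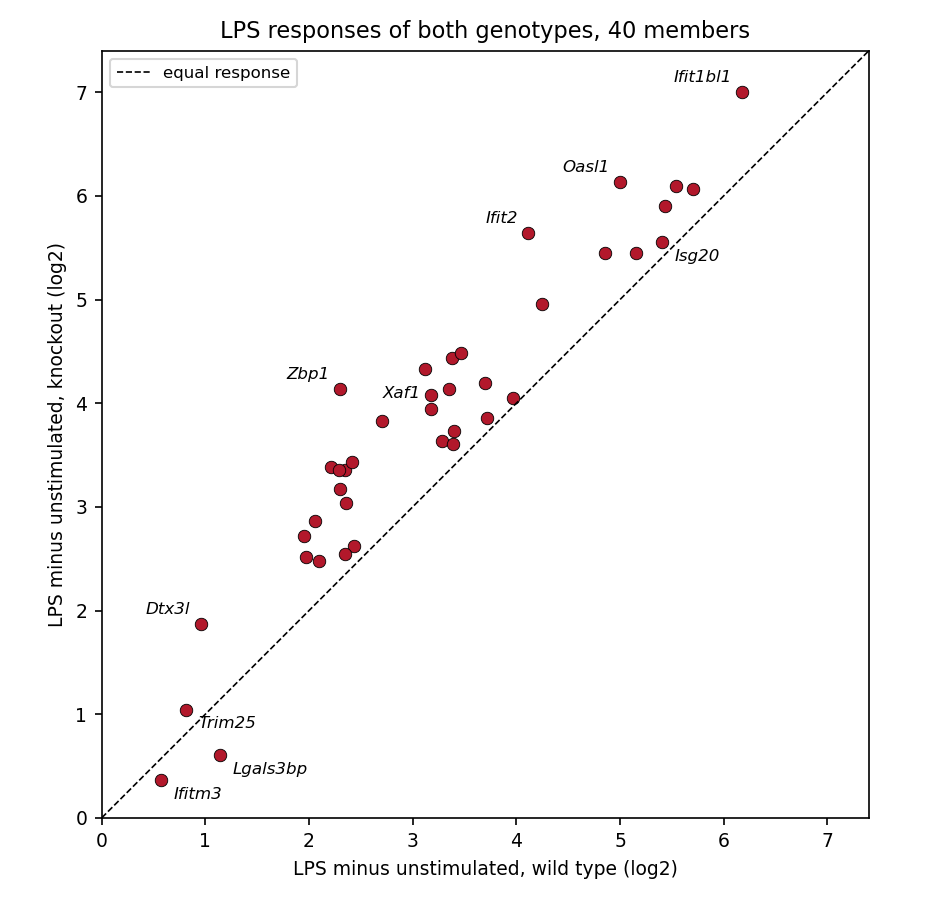
LPS minus unstimulated difference (log2) of each of the 40 members in wild type (horizontal axis) and in the knockout (vertical axis), 1 point per gene, with a dashed line of equal response. All points but those of Lgals3bp and Ifitm3 lie above the line, and Zbp1 lies farthest from it.

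Several members have more than 1 probe set, which gives a second reading of the same RNA. The 40 members had 71 probe sets, and 69 of these reached log2 6 on an array. All 69 were higher with LPS in both genotypes, where 29.5% of the 15527 one-gene probe sets past the same floor were, and 62 were so by 2-fold or more in both, where 7.79% were. Unstimulated, 58 of the 69 read lower in the knockout (48.2% of all such probe sets), and with LPS 56 read higher (51.9%). For Rsad2 and Trim25 the dimmest probe set gave a larger LPS difference than the brightest. Rsad2 gave LPS differences of 3.40 (wild type) and 3.73 (knockout) on its brightest probe set, and 7.33 and 7.89 on its dimmest, whose unstimulated levels of 4.65 and 3.96 were background readings. Trim25 differed by 0.81 and 1.04 on the brightest, of a class marked as able to bind several transcripts, and by 3.20 and 3.90 on the dimmest. For Zbp1 both probe sets gave the gap between genotypes, with unstimulated differences of -1.64 and -1.34.

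Xaf1, a pro-apoptotic inhibitor of the IAP proteins, gave opposite genotype differences on its probe sets. The brightest read 8.28 and 11.46 in wild type and 6.53 and 10.48 in the knockout. On it Xaf1 fell with the knockout by 1.36 with a standard error of 0.25 (limma adjusted p = 0.0387, lower in both states). The other read 3.29 and 3.59 in wild type, background on both arrays, and 8.47 and 11.65 in the knockout. On that probe set Xaf1 rose with the knockout by 6.62 (limma adjusted p = 0.0045, higher in both states). It responded to LPS by 3.19 in the knockout and 0.29 in wild type. The direction of the Xaf1 genotype difference therefore depends on the probe set. On the brightest the call was also lost with a floor of log2 8, quantile normalisation, no intensity trend or no LPS term, with limma adjusted p between 0.0567 and 1.0. Trim21 too differed in sign, by 0.20 and 0.40 on the brightest and -0.99 and -0.64 on the dimmer probe set. With LPS the probe sets of Slfn5, Adar, Parp14 and Rsad2 also differed in sign, with values between -0.27 and 0.28 in the last 3.

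**Figure D4:**
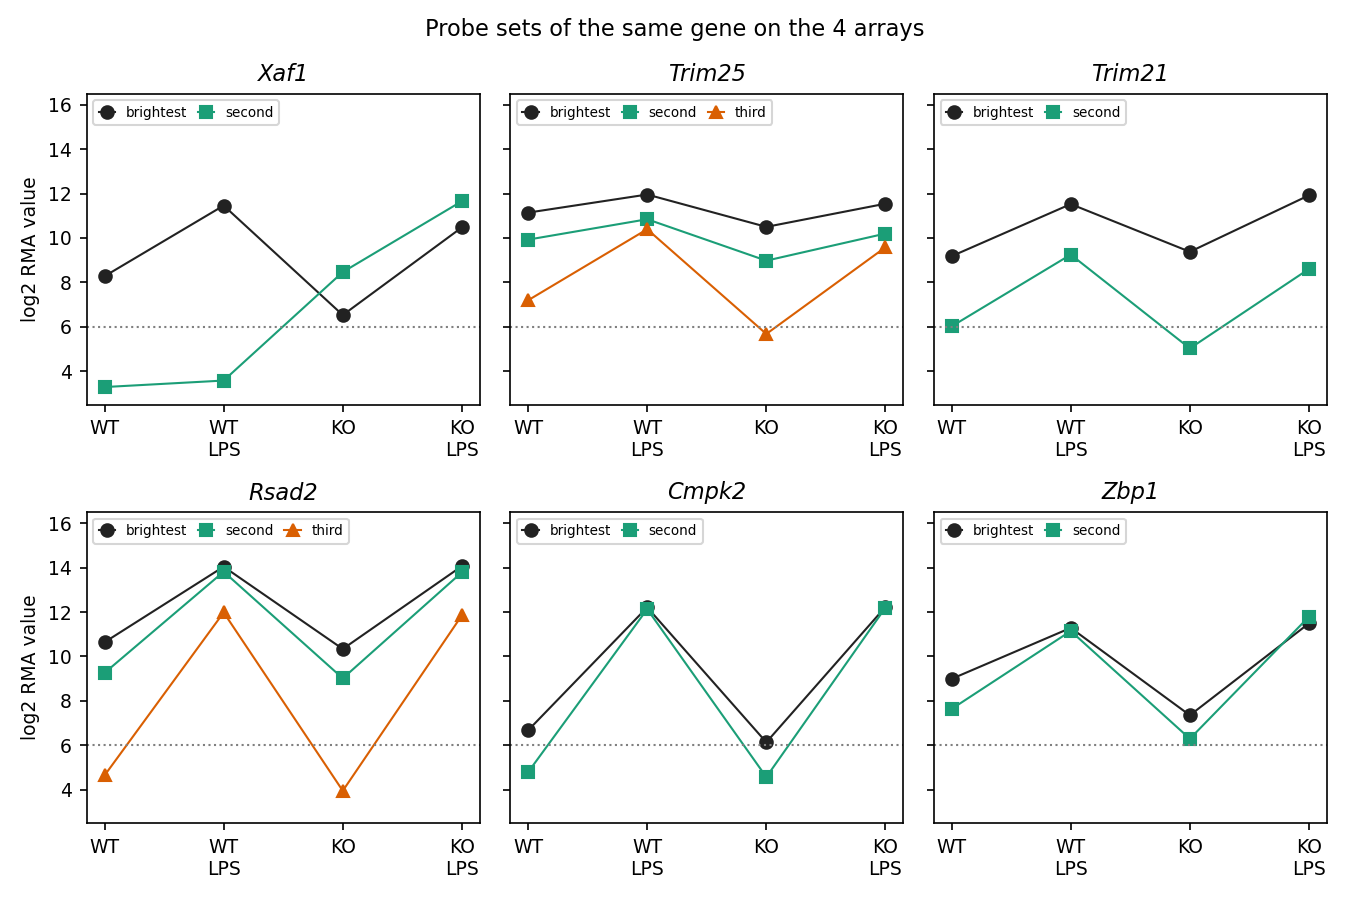
Level (log2 RMA value, vertical axis) of every probe set of 6 members on the 4 arrays (WT wild type, KO knockout), with lines joining the readings of 1 probe set and a dotted line at log2 6. The second probe set of Xaf1 stays under 4 on both wild-type arrays and reaches 8.47 and 11.65 on the knockout arrays.

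The genes upstream and beside the list complete the pathway. Of 5 measured interferon genes only Ifnb1, interferon beta, reached log2 6, reading 3.76 and 8.44 in wild type and 3.54 and 8.63 in the knockout, and it rose by 4.88 (limma adjusted p = 0.00238, higher in both genotypes). Its LPS levels differed between genotypes by 0.19. Of 7 measured genes that lead to interferon, Irf7 (3.15), Ikbke (1.56), Ticam1 (1.31) and Tbk1 (0.65) rose with LPS. Mavs (-1.11) fell, and Irf3 and Tlr4 did not pass. Of all genes tested, 11.2% rose and 18.8% fell with LPS. Tlr4, the LPS receptor, read 10.61 and 10.15 in wild type and 9.24 and 8.69 in the knockout. It fell with the knockout by 1.42, a change of 2.67-fold (limma adjusted p = 0.0134, lower in both states). No other gene of that list passed for genotype, where 6.39% of all genes rose and 3.12% fell. Irf7 read 8.55 and 11.93 in wild type and 9.37 and 12.29 in the knockout.

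Of 6 measured receptor and signalling genes, Stat2 (3.02), Irf9 (1.49) and Tyk2 (1.32) rose with LPS, while Ifnar1, Ifnar2 and Jak1 did not pass. Stat2 read 7.72 and 10.19 in wild type and 6.87 and 10.43 in the knockout, and Irf9 read 8.79 and 10.03 in wild type and 8.43 and 10.18 in the knockout. Like most members of the list, both were lower in the unstimulated knockout and higher with LPS. Of 5 inhibitor genes Socs3 (3.67) rose and Socs1, Pias1, Ptpn6 and Ptpn11 did not pass. In the receptor and inhibitor lists no gene passed for genotype (limma), and 1 inhibitor, Socs3, had an unadjusted p below 0.05. So had 2287 of all 9385 genes.

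A further list of 31 interferon-stimulated genes held 26 measured ones, of which 23 rose with LPS and none fell, with a median effect of 2.45. Of all genes tested, 11.2% rose with LPS and 18.8% fell. Ifi27, Ifi27l2a and Ifitm2 did not pass. For genotype 1 of the 26 rose and 2 fell, where 6.39% and 3.12% of all genes did. They were Ifi27l2a (0.86), Slfn8 (-1.50) and Ifitm1 (-0.94), with limma adjusted p = 0.0286, 0.032 and 0.0463. Slfn8 read 8.59 and 12.56 in wild type and 7.51 and 10.65 in the knockout. Ifi27l2a read 11.70 and 12.20 in wild type and 12.79 and 12.84 in the knockout, and Ifitm1 read 9.77 and 10.38 in wild type and 8.72 and 9.56 in the knockout. For the 21 past the floor unstimulated the median knockout minus wild type difference was -0.21, and for all 26 with LPS it was 0.18.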

How the data were processed

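Expression was measured in 4 samples with 1 Affymetrix array each. The authors deposited log2 values per probe set, made with RMA per the submitters' processing notes; its version and settings were not stated in the labels read here. The median of each array was 4.15 to 4.24, and 32.1% to 34.5% of the 45101 probe sets reached log2 6. The labels give no batch, and the number of arrays limits the precision.

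Of the probe sets, 34945 named 1 gene in the platform annotation and 932 named several. Symbols of 34741 were updated through the RefSeq table of GRCm38.p6, giving 18193 genes, each on its brightest probe set. limma 3.58.1 in R 4.3.3 fitted genotype and LPS additively on log2 values, with intensity trend and a prior of 3.84 degrees of freedom, and was tested on simulated data. Centring the arrays moved the median LPS effect of all genes from -0.22 to -0.10. Single differences were counted at 2-fold, for genes at or above log2 6 on an array compared. Promoters came from RefSeq.

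The members, lists, motifs and tests were chosen with earlier results of these data known. All members could be named; levels were given for the largest, smallest and called ones, for Ifnb1, Irf7, Stat2 and Irf9, and for pathway genes called for genotype. Other members were added after their values were seen. Alternatives covered the floor, an offset, normalisation, the probe set and the model. Computation used Python 3.11.15, numpy 2.4.6, pandas 2.3.3, scipy 1.17.1 and matplotlib 3.10.9.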

Additional observations from a re-analysis of the deposited data

Results flagged for a closer look

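The genotype difference pointed opposite ways in the 2 states: the member median of knockout minus wild type was -0.60 without LPS and 0.21 with it. The difference between the states was not tested, since each group had 1 array. On their brightest probe sets Zbp1 and Ddx58 were 2-fold or more lower in the knockout without LPS and each read 0.20 higher with it. That value is near the median SD of 0.18 between probe sets of a gene. With LPS the other probe set of Zbp1 gave 0.65, and those of Ddx58 gave 0.89 and 0.19. On the brightest, the LPS responses of Zbp1 and Ddx58 were larger in the knockout by 1.84 and 1.21, which was not tested either.

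The dimmer Xaf1 probe set, which the choice of the brightest leaves out, read higher in the knockout by 5.17 without and 8.07 with LPS, from background levels on both wild-type arrays.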

How the results depend on the processing

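No paired analysis was possible because each group has 1 array. Of the 40 members that rose with LPS, all 40 did under 5 of 9 alternatives, 39 with no floor (Ifitm3 lost), 39 with the dimmest probe set at or above log2 6 per gene (an alternative chosen after seeing the data; Xaf1 lost), 38 without the intensity trend and 33 without the genotype term. The member lower with genotype (1, Xaf1) became 0 with a floor of log2 8, quantile normalisation, the mean of all probe sets, no trend, and no LPS term. With the dimmest probe set the count was also 1, but that member was Trim25 (-1.16). The member higher (1, Isg20) became 0 with 64 added to linear values, quantile normalisation and no LPS term, and 2 with the dimmest probe set. The Xaf1 genotype effect turned to 2.63 with the mean of its probe sets and 6.62 with the dimmest, and its unstimulated difference to 1.71 and 5.17; its probe sets read opposite ways. The median LPS difference in wild type (3.18) became 2.92 with 64 added and 2.84 with mean probe sets, and in the knockout (3.84) 3.28 with 64 added. For knockout minus wild type without LPS, a floor of log2 8 left 18 members below and 5 above 0, and adding 64 gave a median of -0.40 with 3 members 2-fold lower. There the number 2-fold higher (1) was 0 with the floor of log2 8, 64 added, quantile normalisation and centring, and 2 with mean or dimmest probe sets. With LPS, centring gave 11 members below 0 and 1 that was 2-fold lower, and mean or dimmest probe sets gave 2 that were 2-fold higher. Counting at 1.5-fold gave 19 lower and 2 higher without LPS, 1 lower and 2 higher with LPS, and 22 larger responses. The number of larger responses at 2-fold (11) was 5 with 64 added, and their median gap stayed between 0.53 and 0.88 over the alternatives. Apart from Xaf1, the cause of these shifts was not tested. Probe sets near background can understate a change, which limits the lowest unstimulated readings. On each unstimulated array 37 of the 40 members reached log2 6. The part of low readings in the unstimulated differences was not tested.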

Other observations

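Position on the chromosomes was examined after the values were seen. Of the 40 members, 7 lie on chromosome 11, which carries Kdm6b. In the RefSeq gene order Xaf1 is the nearest, with 102 protein-coding genes between it and Kdm6b, followed by Slfn5 (301), Slfn4 (306), Trim25 (392), Dhx58 (632), Ifi35 (670) and Lgals3bp (935). On the brightest probe sets, 6 of the 7 were below 0 (knockout minus wild type) without LPS, as were 24 of the 33 members on other chromosomes. Of all genes past the floor, 43.2% were. Slfn5, and Mx2 among the 33, were background readings in that state. With LPS, the 4 nearest were below 0 and the other 3 above, while 2 of the 33 elsewhere were below 0. Over all genes past the floor 45.9% were. Among the 4, other probe sets gave the opposite sign with LPS, at 8.07 for Xaf1 and at 0.40 and 0.06 for Slfn5, and Slfn4 differed by -0.01, so the split rests on the choice of probe set.

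Schlafen genes of the further interferon-stimulated list lie on the same chromosome. Over the 7 measured Slfn genes, 5 were below 0 without LPS and 6 with it. Of all genes past the floor, 43.2% and 45.9% were. Slfn3 and Slfn5 were under log2 6 on both unstimulated arrays. With LPS the differences were -1.91 for Slfn8, -0.58 for Slfn5, -0.44 for Slfn1, -0.38 for Slfn2, -0.21 for Slfn3, -0.01 for Slfn4 and 0.13 for Slfn9. No cause of this was tested.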
